A study of Mus musculus with 12 samples.

Results

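Norrin and Wnt signaling of retinal vessels was followed through 8 genes that were chosen by name from the 36131 genes of the count table: the ligand Ndp, the receptor complex Fzd4, Lrp5 and Tspan12, and the responders Lef1, Axin2, Apcdd1 and Sox17. Each symbol matched 1 Ensembl row. The samples were whole retinas of 12 wildtype C57BL/6J mice, all collected at postnatal day (P) 18, with 1 library per animal and 4 animals per group. RA-PBS mice (animals 1 to 4) were raised in room air and received the placebo PBS. O2-PBS mice (animals 5 to 8) were kept in 75% O2 from P7 to P12 by the labels, returned to room air and received PBS. O2-IC100 mice (animals 9 to 12) had the same oxygen exposure and received 10 µg/g of IC100, which is an anti-ASC antibody (ASC is the scaffold of inflammasomes), into the peritoneum at P12, P14 and P16. The labels give the same injection days for both PBS groups. The oxygen schedule is the mouse model of oxygen-induced retinopathy, in which vessels are lost in high oxygen and regrow abnormally in room air. The retina was sequenced whole, so the cells that made each transcript are not known, and fewer cells of a type cannot be told apart from less RNA per cell.

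Norrin, the protein of Ndp, is secreted mainly by Müller glia and binds the receptor Frizzled-4 on vessel endothelium, together with the co-receptor LRP5 and the helper protein TSPAN12. The receptor complex stabilizes β-catenin, which enters the nucleus and works with TCF and LEF factors on target genes. Norrin signaling is needed for the growth of the retinal vessels and for their blood-retina barrier, and its loss causes Norrie disease and familial exudative vitreoretinopathy in humans.

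The libraries summed to between 14907143 and 24438082 counts. Rod genes, the defining markers of the retina, were abundant in 11 animals, where the 8 rod genes of the list summed to between 37186 and 44304 CPM (counts scaled to library size after TMM normalization, the unit of all levels here). They summed to 10206 CPM in O2-IC100 animal 10, in which 16 crystallin genes of the lens took 59.0% of all counts. In the other animals these 16 genes took 1.25%, 4.50% and 1.44% in RA-PBS animals 2, 3 and 4, and between 0.00303% and 0.0158% in each of the other 8. The tests were therefore run on 12 animals and on the 11 animals without animal 10, and a difference is over the 11 unless stated. Sex was spread unevenly: the 4 Y-linked genes were near 0 in RA-PBS animal 4, in O2-PBS animals 5, 6 and 7, and in animal 10. Without animal 10 every O2-IC100 animal carried them, at a summed 283 to 324 CPM, beside a median of 9.08 in O2-PBS. Over 11 animals a difference between O2-IC100 and O2-PBS is therefore largely confounded with sex.

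None of the 8 genes rose or fell in any of the 3 comparisons, with or without animal 10. The test was edgeR's quasi-likelihood F test, with a gene called at a fold change of at least 1.5, p under 0.05 and a Benjamini-Hochberg adjusted p under 0.1 over all genes tested, and DESeq2 called 0 of 8 as well. All 8 genes passed the filter on low counts. Over 11 animals the test called 6.27% of 16688 genes between O2-PBS and RA-PBS, 0.947% between O2-IC100 and O2-PBS, and 1.56% between O2-IC100 and RA-PBS. Over 12 animals it called 0.807% of 16489 genes, 0 and 0. At an unadjusted p under 0.05 stood 2 of the 8 genes between O2-PBS and RA-PBS, 0 between O2-IC100 and O2-PBS and 1 between O2-IC100 and RA-PBS over 11 animals. Of all 16688 genes, 3648, 3201 and 2595 stood there, in the same order. Over 12 animals it was 0 of the 8 in each, beside 1174, 2784 and 2183 of all 16489 genes. The median difference of the 8 genes over 11 animals was 0.25 on the log2 scale between O2-PBS and RA-PBS, beside -0.007 over all genes tested, and 7 of 8 lay above 0. Between O2-IC100 and O2-PBS it was -0.18, with 6 of 8 below 0, beside 0.004 over all genes.

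**Figure D1:**
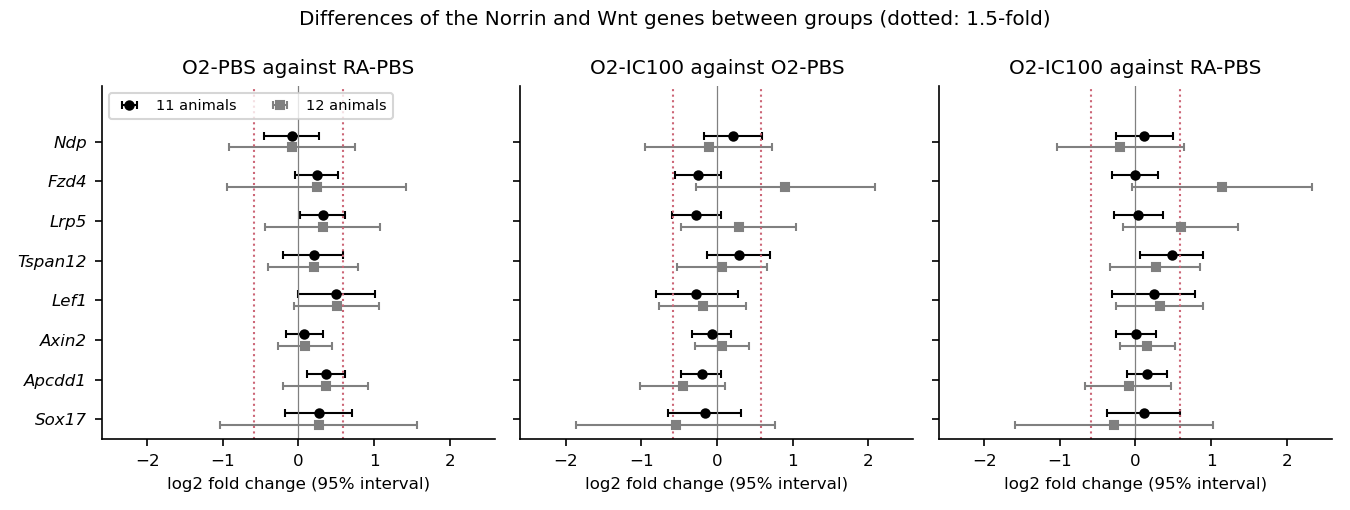
Difference of each of the 8 genes in the 3 comparisons, as log2 fold change with its 95% interval from edgeR, over 11 animals (black circles, without O2-IC100 animal 10) and 12 animals (grey squares). Dotted lines mark a 1.5-fold change, and the intervals over 12 animals are the wider ones, widest for Fzd4 and Sox17.

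Per kilobase of exon, the scale on which genes can be compared, Axin2 was the most abundant of the 8 in RA-PBS retinas, at 7.29 ± 1.05 CPM per kb (mean ± SD, n = 4). Tspan12 followed at 4.98 ± 1.54, Ndp at 3.60 ± 0.628, Fzd4 at 3.17 ± 0.531, Lrp5 at 2.92 ± 0.438, Apcdd1 at 2.31 ± 0.147, Sox17 at 1.30 ± 0.237 and Lef1 at 0.912 ± 0.116 CPM per kb. The animals of neighbours in this order overlapped, except between Apcdd1 and Sox17. The ligand and the receptor genes thus lay close together, and the 2 transcription factors Sox17 and Lef1 were the lowest. In O2-PBS retinas, Axin2 and Tspan12 again led, at 7.74 ± 0.931 and 5.71 ± 0.699 CPM per kb, and Sox17 and Lef1 were again last, at 1.56 ± 0.355 and 1.30 ± 0.279. In the 3 O2-IC100 animals other than animal 10, Axin2 stood at 7.28 ± 0.402, Tspan12 at 6.89 ± 0.896 and Lef1 at 1.06 ± 0.386 CPM per kb.

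Ndp encodes Norrin itself. RA-PBS animals 1 to 4 had 8.53, 5.75, 6.33 and 7.32 CPM, O2-PBS animals 5 to 8 had 7.05, 6.10, 6.95 and 6.15, and O2-IC100 animals 9, 11 and 12 had 6.28, 7.10 and 9.12. The 3 groups overlapped, and only animal 10 stood apart, at 1.51 CPM. None of the 8 genes separated O2-PBS from RA-PBS animals without overlap, while 14.4% of all genes did. The difference between O2-PBS and RA-PBS over 11 animals was -0.09 (log2, SE 0.17, 95% interval -0.45 to 0.27, adjusted p = 0.795), an interval that reaches from 0.73-fold to 1.20-fold. O2-IC100 against O2-PBS gave 0.21 (interval -0.17 to 0.59, adjusted p = 0.515). Over 12 animals these differences were -0.09 and -0.11 with an SE of 0.38.

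Fzd4 encodes the Norrin receptor Frizzled-4. It stood at 17.0, 24.9, 23.5 and 19.9 CPM in RA-PBS animals 1 to 4, at 28.8, 24.2, 21.1 and 26.8 in O2-PBS animals 5 to 8, and at 19.4, 23.1 and 20.5 in O2-IC100 animals 9, 11 and 12. In the lens-rich animal 10 it stood at 127 CPM. The groups overlapped without animal 10. The difference between O2-PBS and RA-PBS over 11 animals was 0.24 (SE 0.13, interval -0.04 to 0.52, adjusted p = 0.308). Within RA-PBS, the animal almost free of lens transcripts, animal 1, had the lowest Fzd4 but the highest Lrp5, at 19.4 CPM. Without RA-PBS animals 2, 3 and 4, which leaves animal 1 alone in its group, the Fzd4 difference was 0.56, still under 1.5-fold. Between O2-IC100 and O2-PBS the difference was -0.25 (SE 0.14, interval -0.55 to 0.06, adjusted p = 0.340) over 11 animals. Animal 10 alone turned it to 0.90 (SE 0.54, adjusted p = 0.379) over 12 animals. With the lens transcripts of each library as a covariate over 12 animals, O2-PBS against RA-PBS gave 1.09 for Fzd4 (adjusted p = 0.0173), 0.72 for Lrp5 (adjusted p = 0.0947) and -0.79 for Ndp (adjusted p = 0.0749). All 3 were past the thresholds, as were 2819 of all 16489 genes with this covariate. Over 11 animals the same covariate gave no call of the 8, beside 3316 calls over all 16688 genes.

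Lrp5 encodes the co-receptor. RA-PBS animals had 19.4, 18.9, 18.2 and 13.6 CPM, O2-PBS animals 27.9, 19.7, 18.5 and 21.3, and O2-IC100 animals 9, 11 and 12 had 17.2, 18.3 and 18, with 53.7 CPM in animal 10. O2-PBS animal 5 was the highest apart from animal 10, and RA-PBS animal 4 the lowest. Between O2-PBS and RA-PBS over 11 animals Lrp5 differed by 0.32 (SE 0.14, interval 0.02 to 0.62, unadjusted p = 0.0404, adjusted p = 0.202, edgeR), which is 1.25-fold. O2-IC100 against O2-PBS gave -0.28 (SE 0.15, adjusted p = 0.322). Each of the 3 O2-IC100 animals lay below the lowest O2-PBS animal, as was true in one or the other direction of 35.2% of all genes. With animal 10 the groups overlapped.

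Tspan12 encodes the tetraspanin that helps Norrin engage Frizzled-4. It stood at 10.9, 9.90, 10.7 and 18.1 CPM in RA-PBS animals 1 to 4, at 13.6, 12.1, 15.1 and 16.1 in O2-PBS animals, and at 14.7, 19.2 and 17.6 in O2-IC100 animals 9, 11 and 12, with 7.95 in animal 10. RA-PBS animal 4 stood above the other 3 RA-PBS animals and decided how the groups compared. With all 11 animals, O2-IC100 against RA-PBS gave 0.48 (SE 0.19, interval 0.06 to 0.90, unadjusted p = 0.0270, adjusted p = 0.250). Without animal 4 it gave 0.73 (adjusted p = 0.00885), past the thresholds, as were 925 of all genes then, beside 261 with all 11 animals. Without RA-PBS animals 2, 3 and 4, which leaves animal 1 alone in its group, it gave 0.66. Between O2-PBS and RA-PBS the difference was 0.20 (SE 0.18, adjusted p = 0.580), and without animal 4 it was 0.44 (adjusted p = 0.0535), under 1.5-fold. Astrocyte genes also stood apart in animal 4: the 5 genes of that list (Gfap, Pax2, Pdgfra, S100b, Aldh1l1) summed to 358 CPM there, with a group median of 77.6. Their part in the Tspan12 value was not tested. Animal 4 was also the only RA-PBS animal with hardly any Y-linked transcripts, which O2-IC100 animals 9, 11 and 12 all carried. With the Y-linked covariate, O2-IC100 against RA-PBS gave 0.61 over 11 animals (adjusted p = 0.124, edgeR), without a call.

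**Figure D2:**
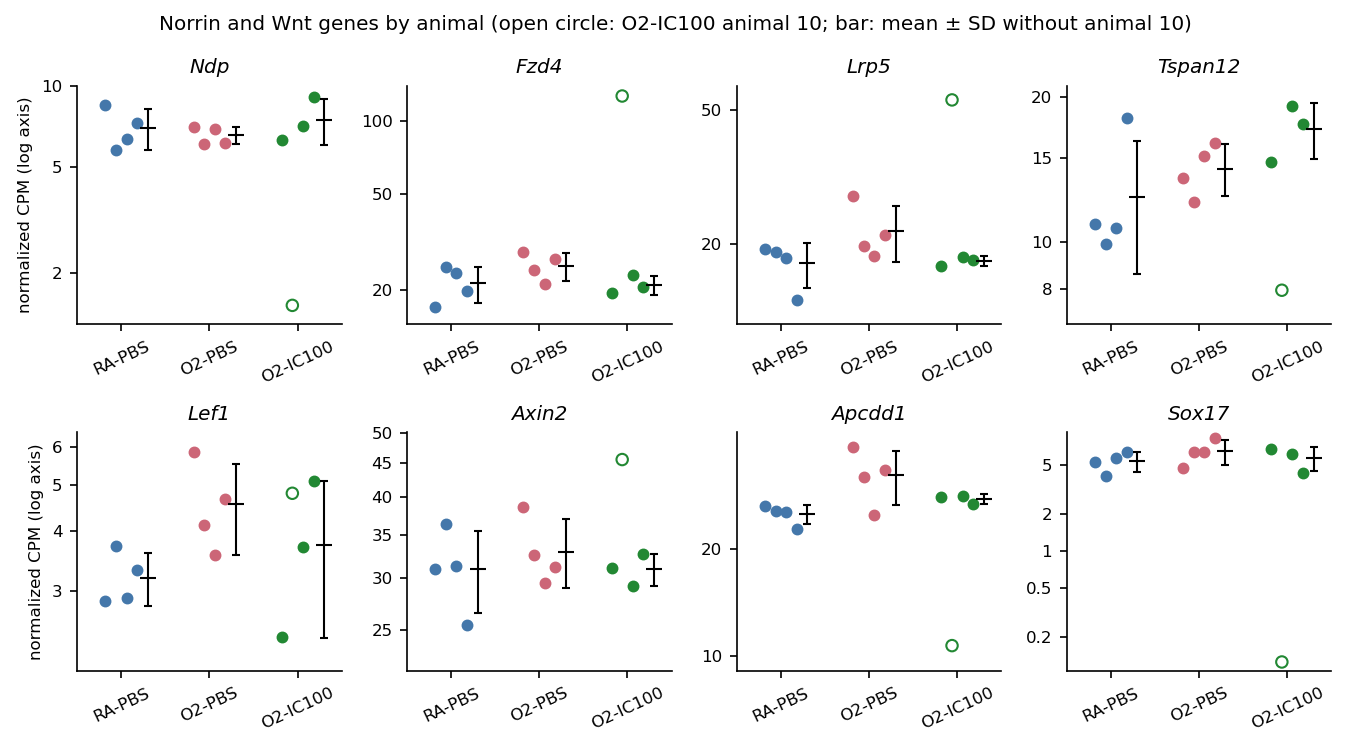
Normalized CPM of the 8 genes in every animal on log axes, by group, with the mean ± SD of each group without O2-IC100 animal 10 (open circle). Without that animal the groups overlap for most genes. On this scale animal 10, with its TMM factor of 0.3244, lies far above the others for Fzd4 and Lrp5. It lies far below them for Ndp, Apcdd1 and Sox17.

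Lef1 encodes the transcription factor that carries β-catenin to DNA and is itself a target in endothelium. It stood at 2.86, 3.72, 2.89 and 3.32 CPM in RA-PBS, at 5.85, 4.12, 3.56 and 4.66 in O2-PBS, and at 2.40, 3.70 and 5.10 in O2-IC100 animals 9, 11 and 12, with 4.80 in animal 10. The lowest O2-PBS animal lay just under the highest RA-PBS animal, and the O2-IC100 animals spanned both. Of the 8 genes Lef1 had the largest difference between O2-PBS and RA-PBS over 11 animals, 0.50 (SE 0.24, interval -0.01 to 1.01, adjusted p = 0.235), and also the widest interval.

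Axin2 encodes a scaffold of the β-catenin destruction complex and is the most general feedback target of Wnt signaling. It stood at 31.0, 36.4, 31.3 and 25.5 CPM in RA-PBS, at 38.6, 32.6, 29.5 and 31.2 in O2-PBS and at 31.1, 29.2 and 32.7 in O2-IC100 animals 9, 11 and 12, with 45.6 in animal 10. The groups overlapped in full. The differences over 11 animals were 0.08 between O2-PBS and RA-PBS (SE 0.11, interval -0.16 to 0.33, adjusted p = 0.710), -0.07 between O2-IC100 and O2-PBS and 0.01 between O2-IC100 and RA-PBS. The first interval reaches from 0.90-fold to 1.25-fold, so a 1.5-fold change of Axin2 in the whole retina lay outside it.

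Apcdd1 encodes a membrane protein that inhibits Wnt signaling and is a Norrin target in retinal endothelium. RA-PBS animals had 26.5, 25.6, 25.4 and 22.8 CPM, O2-PBS animals 38.7, 31.9, 25 and 33.3, and O2-IC100 animals 9, 11 and 12 had 28.1, 28.2 and 26.7, with 10.7 in animal 10. In O2-PBS, 3 of the 4 animals lay above every RA-PBS animal and animal 7 lay among them. Of the 8 genes, Apcdd1 alone had an adjusted p under 0.1 between O2-PBS and RA-PBS over 11 animals, with a difference of 0.36 (SE 0.11, interval 0.11 to 0.61, adjusted p = 0.0726, edgeR). It was not called because 1.28-fold is under the 1.5-fold threshold. The interval reaches from 1.08-fold to 1.52-fold. O2-IC100 against O2-PBS gave -0.20 (SE 0.12, adjusted p = 0.364). The O2-IC100 animals other than animal 10 lay just above all RA-PBS animals, by 0.15 (adjusted p = 0.583), and such a lack of overlap in one or the other direction held for 10.7% of all genes.

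Sox17 encodes an endothelial transcription factor of arteries that is induced by Norrin and Frizzled-4 in cultured endothelium. It stood at 5.22, 4.06, 5.66 and 6.37 CPM in RA-PBS, at 4.70, 6.31, 6.33 and 8.26 in O2-PBS and at 6.65, 6.10 and 4.31 in O2-IC100 animals 9, 11 and 12. In animal 10 only 1 read was assigned to it, 0.126 CPM. O2-PBS against RA-PBS gave 0.27 (SE 0.21, interval -0.18 to 0.71, adjusted p = 0.496) over 11 animals, and O2-IC100 against O2-PBS gave -0.16 (SE 0.22, adjusted p = 0.710).

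Over 12 animals, O2-PBS against RA-PBS gave 0.32 for Lrp5 (SE 0.35), 0.20 for Tspan12 (SE 0.27), 0.51 for Lef1 (SE 0.26), 0.09 for Axin2 (SE 0.16), 0.36 for Apcdd1 (SE 0.26) and 0.27 for Sox17 (SE 0.60). O2-IC100 against O2-PBS gave 0.29 for Lrp5, 0.07 for Tspan12, -0.19 for Lef1, 0.07 for Axin2, -0.45 for Apcdd1 and -0.54 for Sox17 over 12 animals. Against RA-PBS, the 12 animals gave 0.60, 0.27, 0.32, 0.16, -0.09 and -0.28 for the same genes in that order. The first comparison thus had like differences and larger errors, while those with O2-IC100 moved with animal 10.

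Endothelial genes as a list changed. Of 12 endothelial genes outside the 8 (Pecam1, Cdh5, Tie1, Tek, Erg, Fli1, Esam, Egfl7, Emcn, Robo4, Ptprb, Cd34), 10 rose and 0 fell between O2-PBS and RA-PBS over 11 animals, with a median difference of 1.23 (log2), and 3 rose over 12 animals. Their summed level was 144 to 169 CPM in RA-PBS, 276 to 340 in O2-PBS, and 188 to 214 in O2-IC100 without animal 10, which itself had 61.0. Of 8 pericyte genes, 7 rose between O2-PBS and RA-PBS, with a median of 1.18, and 1 rose over 12 animals. Without RA-PBS animals 2, 3 and 4, which leaves animal 1 alone in its group, the medians were 1.42 for endothelial and 1.24 for pericyte genes. In O2-IC100 against O2-PBS, 4 of the 12 endothelial genes fell and 0 rose, with a median of -0.52, and against RA-PBS 7 rose and 1 fell, with a median of 0.70. Over 12 animals edgeR called 0 of the 12 in either comparison with O2-IC100, with 8 and 3 at an unadjusted p under 0.05.

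Each of the 8 genes was therefore also set against the endothelium of its own animal, as the log2 ratio of the gene to the mean log2 CPM of the 12 endothelial genes. All 8 ratios were lower in every O2-PBS animal than in every RA-PBS animal. The same held for 79.9% of all 16688 genes, so the count says nothing particular to these 8. The mean ratio of Ndp was -0.44 in RA-PBS and -1.61 in O2-PBS, a difference of -1.18, the largest of the 8. That of Axin2 was 1.70 and 0.69, a difference of -1.01. The smallest difference was that of Lef1, -0.62, from -1.53 in RA-PBS to -2.15 in O2-PBS. Sox17 had ratios of -0.71, -1.10, -0.91 and -0.57 in RA-PBS and -2.19, -1.52, -1.54 and -1.45 in O2-PBS.

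In the 3 O2-IC100 animals other than animal 10, the ratios to endothelium lay between those of the other groups for all 8 genes on average. The summed endothelial genes also lay in between, at 188 to 214 CPM, beside 144 to 169 in RA-PBS and 276 to 340 in O2-PBS. A gene without any change would thus have a ratio in between as well, and the share of all genes that did was not counted. The ratios were higher than in every O2-PBS animal for 5 of the 8 (Ndp, Fzd4, Tspan12, Axin2 and Apcdd1), beside 63.4% of all genes. They were lower than in every RA-PBS animal for 4 (Fzd4, Lrp5, Axin2 and Apcdd1), beside 57.4%. The mean ratio of Tspan12 was 0.29, beside 0.35 in RA-PBS and -0.52 in O2-PBS. Set against Müller glia, the main source of Norrin, by the same ratio to the 8 genes of that list, 5 of the 8 were higher in O2-PBS without overlap, beside 34.9% of all genes, and 2 of the 8 Müller glia genes fell (0 over 12 animals by edgeR, with 0 at an unadjusted p under 0.05). Ndp changed from -4.27 in RA-PBS to -3.97 in O2-PBS on this scale.

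**Figure D3:**
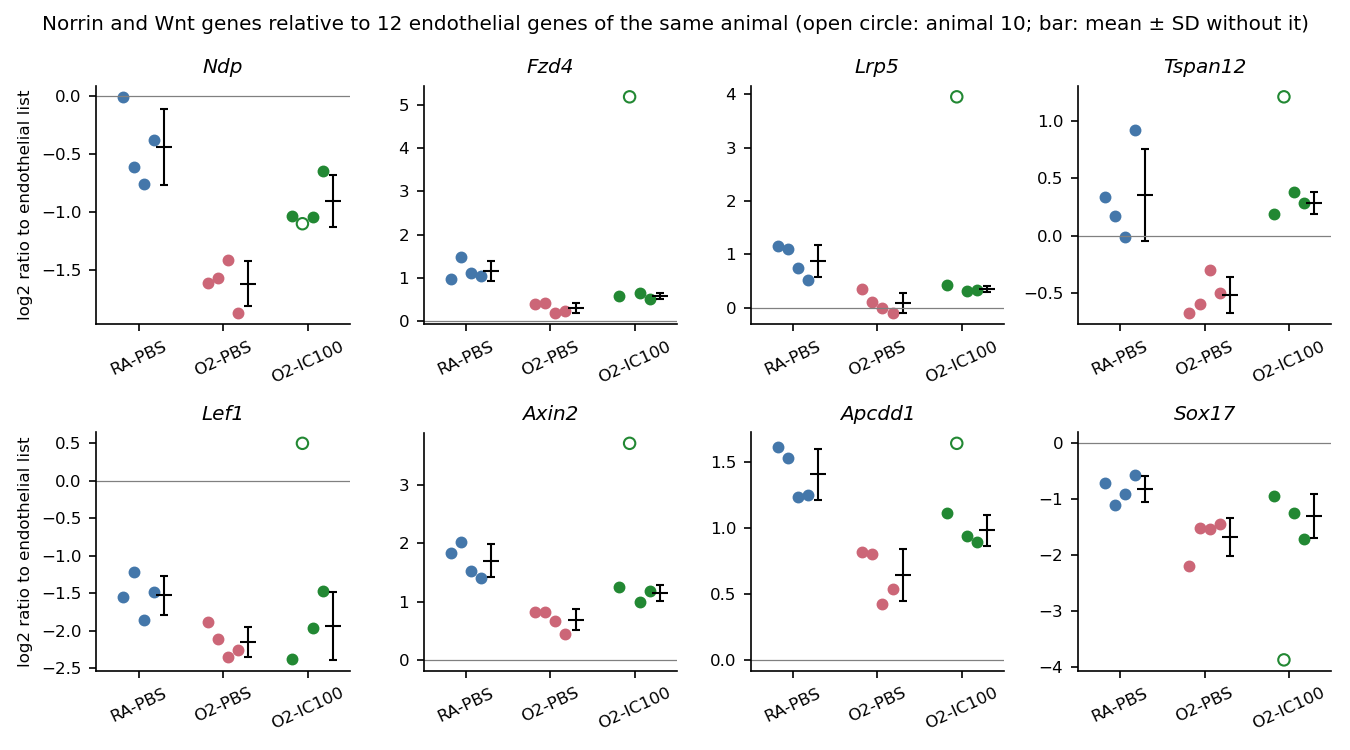
Log2 ratio of each of the 8 genes to 12 endothelial genes of the same animal, by group, with the mean ± SD without O2-IC100 animal 10 (open circle). In each panel the 4 O2-PBS animals lie below the 4 RA-PBS animals, which also held for 79.9% of all genes.

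The wider Wnt pathway was read from 7 lists with 104 genes, of which 91 could be tested. Over 11 animals, 10 rose and 6 fell between O2-PBS and RA-PBS, while 4.09% of all genes rose and 2.18% fell. Over 12 animals 3 rose (Kremen1, Plvap and Sox18) and 0 fell. Without RA-PBS animals 2, 3 and 4, animal 1 is alone in its group. The median difference of the 89 genes tested was then 0.11, beside 0.02 for the 91 over 11 animals. With the lens covariate 12 of the 16 calls were kept, without animal 5 it was 10 and without animal 8 it was 11.

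Of the feedback and target genes, 5 of 11 tested rose and 0 fell between O2-PBS and RA-PBS, with a median of 0.68, beside 4.09% of all genes that rose. None of the Wnt feedback genes of the list (Nkd1, Nkd2, Rnf43, Znrf3, Sp5 and Tnfrsf19) was among the calls. The vessel genes Sox18, Sox7 and Foxf2 were, beside median rises of 1.23 for the endothelial and 1.18 for the pericyte list, a comparison that was not tested. Sox18 and Sox7, the relatives of Sox17 in endothelium, both rose. Sox18 stood at 4.15, 2.08, 4.55 and 4.11 CPM in RA-PBS and 12.6, 8.71, 8.31 and 15 in O2-PBS, a difference of 1.58 (SE 0.25, adjusted p = 0.00194). Sox7 stood at 1.85, 1.45, 1.17 and 1.11 CPM in RA-PBS and 4.34, 3.70, 2.94 and 5.76 in O2-PBS, a difference of 1.58 (SE 0.26, adjusted p = 0.00269). The groups did not overlap for either. Foxf2, a transcription factor of brain pericytes and vessels, rose by 1.38 (adjusted p = 0.00310), and the cell cycle gene Ccnd1 by 0.68 (adjusted p = 0.00269), while the fifth of them, Myc, rose by 1.74 (adjusted p = 0.0320) from at most 1.16 CPM in RA-PBS, a call lost without animal 5 (adjusted p = 0.111). Against RA-PBS, O2-IC100 was higher over 11 animals for Foxf2 by 1.25 (adjusted p = 0.0415), Sox7 by 1.15 (adjusted p = 0.0727) and Sox18 by 1.01 (adjusted p = 0.0857). These calls were easily lost. All 3 were lost without animal 11 or 12 and over 12 animals (each adjusted p = 0.374). Sox7 was also lost without animal 2, 3, 6 or 9, with the lens covariate (adjusted p = 0.183) and without RA-PBS animals 2, 3 and 4 (adjusted p = 0.178). Sox18 was also lost without animal 1, 2, 5, 6, 7, 8 or 9 and with the Y-linked (adjusted p = 0.112) and lens covariates (adjusted p = 0.166). Of the 104 genes only Ccnd1 fell between O2-IC100 and O2-PBS over 11 animals, by -0.66 (adjusted p = 0.0381). That call was lost without animal 5, 7, 9, 11 or 12 and with the Y-linked covariate (-0.60, adjusted p = 0.118), and over 12 animals the difference was 0.76 (adjusted p = 0.505).

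Sox17 was also set against Sox7 and Sox18, the other SoxF genes. Its log2 ratio to their mean was 0.88, 1.17, 1.24 and 1.52 in RA-PBS animals 1 to 4 and -0.64, 0.15, 0.35 and -0.17 in O2-PBS animals 5 to 8. In O2-IC100 it was 0.69, 0.28 and -0.27 in animals 9, 11 and 12, and -2.92 in animal 10. The RA-PBS animals lay above all others. Since Sox7 and Sox18 themselves rose between O2-PBS and RA-PBS, a gene without any change would also have a lower ratio in O2-PBS. The share of all genes that lie apart on this ratio was not counted. This ratio was chosen after the values had been seen and carries no test.

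Of 13 vessel barrier genes, 2 rose and 2 fell between O2-PBS and RA-PBS. Plvap, which forms the diaphragms of leaky vessels and is held down by Norrin signaling in the mature retina, rose by 0.88 (SE 0.16, adjusted p = 0.00394), and the tight junction gene Cldn5 by 0.80 (SE 0.18, adjusted p = 0.0138). The transporters of endothelium, glia and pigment epithelium Slco1a4 and Slco1c1 fell, by -1.33 (SE 0.23, adjusted p = 0.00385) and -0.91 (SE 0.26, adjusted p = 0.0451), the latter call being lost without animal 4 (-0.72, adjusted p = 0.103) or 6 (adjusted p = 0.107). Pigment epithelium genes fell beside them: 5 of 8 were called lower over 11 animals, with a median of -1.25, and their summed level was 110 to 295 CPM in RA-PBS and 50.2 to 128 in O2-PBS. With the lens covariate 0 of these 8 fell and 1 rose, and their part in the values of the transporters was not tested. Between O2-IC100 and O2-PBS 0 of the 13 were called by edgeR, with 2 at an unadjusted p under 0.05. Against RA-PBS, O2-IC100 was higher for Cldn5 by 0.82 (adjusted p = 0.0648) and lower for Slco1c1 by -1.08 (adjusted p = 0.0864). Without animal 1, 2, 9, 11 or 12 both calls were lost, as they were over 12 animals (0.46 and 0.05), and that of Slco1c1 also without animal 6, 7 or 8 and with the Y-linked covariate. Both Plvap and Cldn5 rose less than the median endothelial gene, at 1.23, a comparison that was not tested.

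Receptors, the intracellular chain and secreted genes were read list by list, beside 6.27% of all genes called between O2-PBS and RA-PBS. Of 9 other Frizzled receptors, 0 were called between O2-PBS and RA-PBS by edgeR over 11 animals, with 2 at an unadjusted p under 0.05. The most abundant per library, Fzd3, a receptor of neurons, stood at 36.4 to 49.0 CPM in RA-PBS and 38.6 to 47.1 in O2-PBS. Of 12 other receptors and co-receptors, Kremen1 and Kremen2, receptors for the DKK inhibitors, rose by 0.64 (adjusted p = 0.00464) and 0.70 (adjusted p = 0.0474). Kremen1 was under 1.5-fold with the lens covariate (0.54) and without animal 4 (0.53), animal 5 (0.57) or RA-PBS animals 2, 3 and 4 (0.53). Kremen2 was lost without animal 1 (0.58), 7 or 8. Lrp6, the co-receptor closest to Lrp5, stood at 73.8, 103, 98.6 and 78.8 CPM in RA-PBS and 96.4, 99.2, 95 and 96.1 in O2-PBS, with overlap. In the intracellular chain, 1 of 22 tested genes was called: Tcf7, a transcription factor of the same family as Lef1, rose by 1.02 (adjusted p = 0.0441), a call lost without animal 5, 6 or 8. Ctnnb1, the gene of β-catenin, stood at 369 to 479 CPM in RA-PBS and 373 to 414 in O2-PBS. The secreted inhibitor Frzb fell by -0.61 (adjusted p = 0.0447), a call lost without animal 1 (-0.44, adjusted p = 0.115), 4 (-0.57, adjusted p = 0.0807), 5 or 8. Dkk3, the most abundant secreted gene of the lists, was at 553 to 750 CPM in RA-PBS and 484 to 508 in O2-PBS, without a call.

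**Figure D4:**
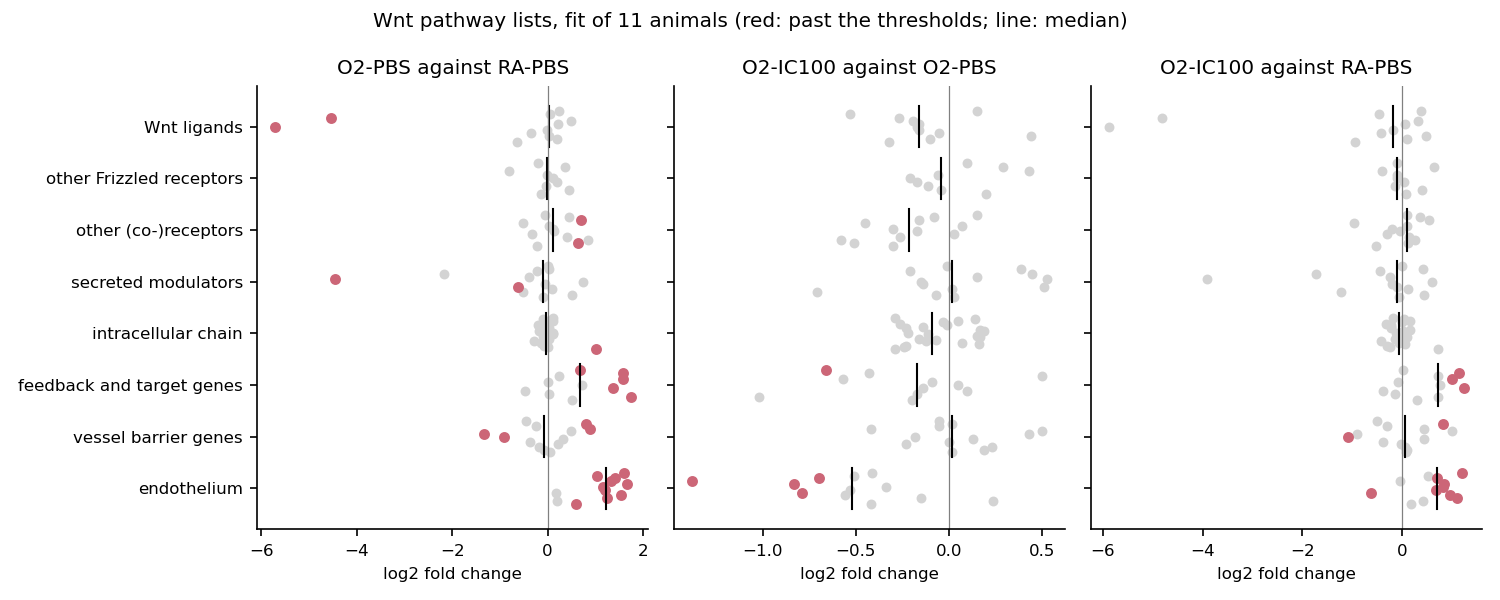
Log2 fold change of each tested gene of the 7 Wnt pathway lists and of the endothelial list over 11 animals, with genes past the thresholds in red and each list's median as a line. The called points of the target list sit between 0.68 and 1.74 in the left panel, and the points below -4 there are Wnt7b, Wnt7a and Rspo1.

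Fitted changes below -4 came from 3 genes that moved with the lens transcripts: Wnt7b at -5.71 (adjusted p = 0.0413), Wnt7a at -4.54 (adjusted p = 0.0529) and Rspo1 at -4.45 (adjusted p = 0.0275) between O2-PBS and RA-PBS. Wnt7b, a Wnt ligand, stood at 0, 7.10, 30.5 and 7.79 CPM in RA-PBS animals 1 to 4, in the same order as their lens transcripts, at 0.0603 to 0.365 in O2-PBS, and at 1022 in animal 10. RA-PBS animal 1, with 34.3 CPM over the 16 lens genes, had none of the 3 transcripts. Wnt7a reached 6.33 CPM and Rspo1 2.94 CPM in RA-PBS animal 3, and 162 and 96.6 CPM in animal 10. With RA-PBS animal 2, 3 or 4 left out, none of the 3 passed the filter on low counts. With the lens covariate the differences turned to 2.91 for Wnt7b, 4.85 for Wnt7a and 0.99 for Rspo1, none called. The calls of Wnt7a and Wnt7b were also lost with the Y-linked covariate and without animal 5, 7 or 8, and that of Wnt7b without animal 6. Sfrp1, a secreted Wnt inhibitor, stood at 3.31, 17.8, 63.6 and 13.5 CPM in RA-PBS, at 4.16 to 6.31 in O2-PBS and at 1736 in animal 10. Wnt2b, the most abundant ligand without animal 10, stood at 4.88 to 14.2 CPM in RA-PBS and 10.1 to 13.7 in O2-PBS. Over 11 animals, O2-PBS against RA-PBS with the lens covariate gave 0.51 for Fzd4 (adjusted p = 0.0622, under 1.5-fold) and 0.16 for Lrp5 (adjusted p = 0.589).

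**Figure D5:**
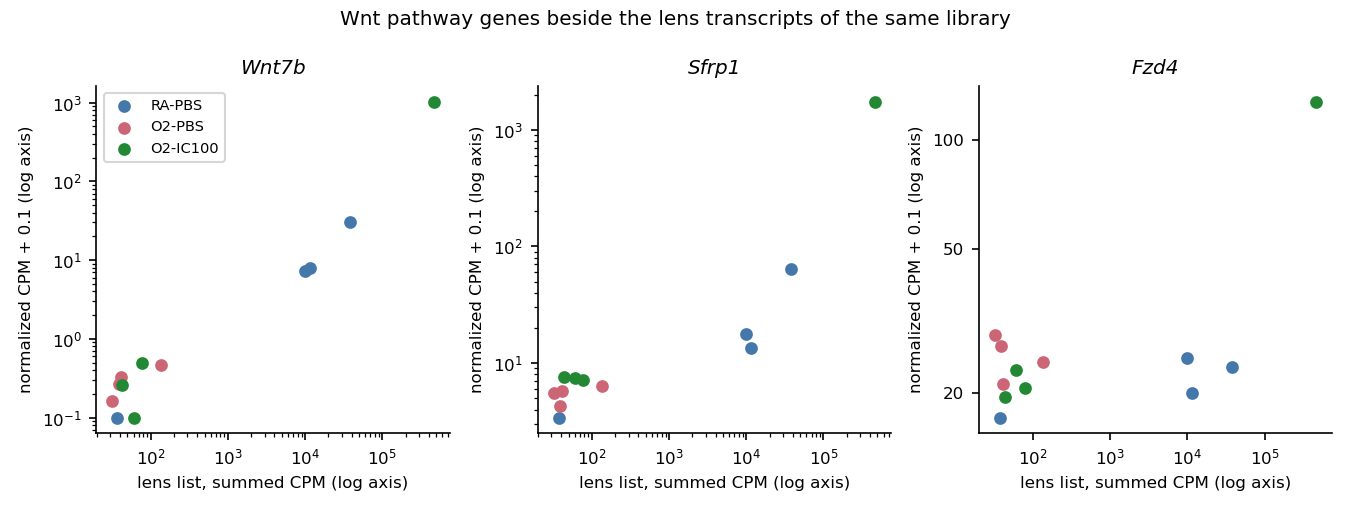
Normalized CPM plus 0.1 of Wnt7b, Sfrp1 and Fzd4 in each of the 12 animals against the summed CPM of 16 lens genes in the same library, not TMM-normalized, on log axes. The point at the right of each panel is O2-IC100 animal 10, at 1022, 1736 and 127 CPM, and the 3 blue points in the middle are RA-PBS animals 2, 3 and 4.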

How the data were processed

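Retinal RNA was sequenced by the authors as paired reads, quantified with Kallisto against the mouse build GRCm39 and summed to genes with tximport. The deposited values are estimated counts per gene, not normalized, of which 42.2% are not whole numbers, and they were rounded here. Of 36131 genes, 35374 were given a symbol through their Ensembl identifier. Counts were normalized by TMM and tested with edgeR 4.0.16 in R 4.3.3 (filterByExpr, robust quasi-likelihood F test, two-sided) in one fit of the 3 groups, for 12 animals and for 11. Thresholds followed the study, which used DESeq2 (here version 1.42.0, an alternative). The code was tested on simulated data. Intervals of 95% use the moderated degrees of freedom. The log2 CPM carry a prior count of 2. Exon lengths for the levels per kilobase came from a GRCm38 annotation matched by identifier and are approximate, and the isoform in use is not known. Ratios to cell type lists were not tested.

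The genes, the lists of pathway and marker genes and the fit without animal 10 were chosen with earlier results of these data known. Named were the 8 genes, each called gene of a pathway list up to 4 per list and comparison, and each list's most abundant gene, with Myc and Sfrp1 added after their values were seen. Alternatives were RLE normalization, no filter, a fit of only the 2 groups compared, an adjusted p under 0.05, covariates for Y-linked and lens transcripts, and leaving out each animal. Nothing says how litters were divided over the groups, so a difference between groups may hold a difference between litters. The p-values set each difference against the spread between animals within groups, in one estimate for all groups.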

Additional observations from a re-analysis of the deposited data

Results flagged for a closer look

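Of 24 groups of 4 animals (8 genes in 3 groups), 4 held an animal whose gap to its nearest neighbour was, as a share of the group's range, above Dixon's critical value for 4 samples, where chance gives about 5% of groups. In O2-IC100, animal 10 had 127 CPM of Fzd4, with the others at 19.4 to 23.1, and 53.7 CPM of Lrp5, with the others at 17.2 to 18.3. These 2 levels depend on its TMM factor of 0.3244. As counts they were 1005 and 425 of 24438082 in animal 10, beside 482 and 381 of 18705357 in animal 11. The same animal had 10.7 CPM of Apcdd1, with the others at 26.7 to 28.2. In RA-PBS, animal 4 had 18.1 CPM of Tspan12, with the others at 9.90 to 10.9.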

How the results depend on the processing

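That none of the 8 genes was called held under DESeq2, RLE normalization, no filter, a fit of only the 2 groups compared and an adjusted p under 0.05. Exceptions came with other settings. Over 12 animals the lens covariate called 3 of the 8 genes between O2-PBS and RA-PBS (Fzd4, Lrp5 and Ndp), beside 2819 of all 16489. It called 2 between O2-IC100 and RA-PBS (Fzd4 and Ndp), beside 3783 of all genes. The Y-linked covariate called 1, Apcdd1, between O2-IC100 and O2-PBS, beside 3484 of all genes. Over 11 animals Tspan12 between O2-IC100 and RA-PBS was the 1 gene called without RA-PBS animals 2, 3 and 4, a setting chosen after seeing the data, which assumes that the lone animal varies like the other groups, and without animal 4 (0 to 1 over the animals left out). The cause was not tested. Of the reversed values over 12 animals, the Y-linked covariate gave Ndp 0.13 and Fzd4 -0.19 between O2-PBS and RA-PBS. The lens covariate gave Sox17 -0.76, Tspan12 -0.13 and Apcdd1 -0.07 there, and Axin2 -0.05, Lrp5 -0.15, Ndp 0.13 and Fzd4 -0.14 between O2-IC100 and O2-PBS. Among these settings, reversals over 11 animals stood only between O2-IC100 and RA-PBS, all from values of at most 0.12 in size. They were Axin2 at -0.01 (DESeq2, RLE and lens covariate), -0.00 (2 groups) and -0.03 (Y-linked covariate), Lrp5 at -0.02 (Y-linked), -0.11 (lens) and -0.12 (without RA-PBS animals 2, 3 and 4), Ndp at -0.13 (lens) and -0.18 (without the 3), and Fzd4 at 0.25 (lens) and 0.31 (without the 3).

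Leaving out each animal over 12 animals, signs turned within the ranges -0.17 to 0.02 for Ndp between O2-PBS and RA-PBS. Between O2-IC100 and O2-PBS they were -0.08 to 0.29 for Tspan12, -0.07 to 0.15 for Axin2, -0.28 to 0.45 for Lrp5, -0.37 to 0.21 for Ndp and -0.25 to 1.16 for Fzd4. Between O2-IC100 and RA-PBS they were -0.55 to 0.11 for Sox17, -0.46 to 0.12 for Ndp, -0.01 to 1.40 for Fzd4 and -0.19 to 0.15 for Apcdd1. Over 11 animals they were -0.17 to 0.03 for Ndp between O2-PBS and RA-PBS and -0.29 to 0.01 for Sox17 between O2-IC100 and O2-PBS. Between O2-IC100 and RA-PBS they were -0.02 to 0.27 for Sox17, -0.10 to 0.07 for Fzd4, -0.07 to 0.09 for Axin2, -0.06 to 0.10 for Lrp5, -0.05 to 0.47 for Lef1 and -0.05 to 0.23 for Ndp.

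Over all genes, the count called between O2-PBS and RA-PBS over 11 animals was 1046, with 784 to 1343 when 1 animal was left out, 3316 with the lens covariate and 4246 without RA-PBS animals 2, 3 and 4. Between O2-IC100 and O2-PBS it was 158, with 0 to 432 when 1 animal was left out (each of the 11 moved it by over 1.5 times, and without animal 9, 11 or 12 it was 0), 53 at an adjusted p under 0.05, 383 by DESeq2, 789 with only the 2 groups, 39 with the Y-linked and 352 with the lens covariate, and 777 without the 3 RA-PBS animals. Between O2-IC100 and RA-PBS it was 261, with 21 (without animal 12) to 925 (without animal 4), where all but animals 1, 3 and 5 moved it by over 1.5 times, and 91, 567, 18, 419, 1859 and 2996 under the same 6 settings. Over 12 animals the first count was 133, with 32 to 1046 when 1 animal was left out (1046 without animal 10), 77 at an adjusted p under 0.05, 412 by DESeq2, 867 with only the 2 groups and 2819 with the lens covariate. The second count over 12 animals was 0, with 0 to 158 when 1 animal was left out, 125 by DESeq2 and 3484 with the Y-linked covariate. The third was 0, with 0 to 261, 299 by DESeq2, 2 without the filter, 17 with the Y-linked and 3783 with the lens covariate, and 22 without the 3 RA-PBS animals.

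All 8 genes stayed lower in O2-PBS than in RA-PBS with a prior count of 0.5 and with the pericyte list as reference. The pericyte list rose by a like amount, a median of 1.18 beside 1.23 for the endothelial list. Leaving out an animal could not change the count, since the groups already lay apart. Relative to endothelium, 79.9% of all genes were lower in the same way. For O2-IC100 against RA-PBS, 0 over 12 animals became 2 with the pericyte list and 0 to 4 with 1 animal left out, and over 11 animals 4 became 4 to 6. No paired analysis was possible because each animal carries its own number and no number is shared between groups. Lef1 and Sox17 rest on few counts, 51 to 77 for Lef1 and 84 to 121 for Sox17 in RA-PBS, which limits their precision.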
